A study of Rattus norvegicus with 9 samples.

Results

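The genes described here are the 3 transforming growth factor beta (TGF-beta) ligands Tgfb1, Tgfb2 and Tgfb3, the TGF-beta receptors Tgfbr1 and Tgfbr2, and the activin receptor Acvr2b, measured in the tongues of rats given an oral carcinogen. A probe set, the group of short probes on an array that reads 1 transcript, was counted for a gene when the annotation gave it that gene as its single symbol. By this rule 5 of the 6 genes were measured, with 7 probe sets among the 31042 probe sets tested and the 14217 genes with such a probe set. Tgfb2 and Tgfbr1 had 2 probe sets each, and Tgfb1, Tgfb3 and Acvr2b had 1 each. Tgfbr2 was not analysed here.

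TGF-beta ligands are secreted in a latent form and, once released, bind the type II receptor Tgfbr2, which recruits and activates the type I receptor Tgfbr1. The activated type I receptor phosphorylates Smad2 and Smad3, which enter the nucleus with Smad4 and change transcription. Acvr2b is a type II receptor for activins, myostatin and related ligands, and it passes its signal to the same Smads through type I receptors. In stratified epithelium the pathway is known to restrain keratinocyte division, and in the stroma it is known to promote the production of extracellular matrix.

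The series held 9 arrays of tongue RNA of male Sprague-Dawley rats, 3 arrays in each of 3 groups. The 4NQO+IL-1Ra group received 0.002% 4-nitroquinoline-1-oxide (4NQO), a carcinogen that causes tongue lesions, in the drinking water, and the IL-1 receptor antagonist IL-1Ra, which competes with IL-1 for its receptor. The 4NQO group received the same carcinogen, and the normal group received distilled water. By the study's methods, IL-1Ra was injected weekly into the tongue submucosa late in the experiment, the 4NQO group received saline in the same way, and tongues were taken at the end. The methods describe 4NQO exposure as preceding the injections. By the labels, 4NQO was given for 22 weeks and lesions were visible between weeks 14 and 22, but the lesion stage of each array was not given. The age of the rats was not given, and no label stated whether the arrays of a group came from separate animals, so p-values measure the spread between these samples. The comparisons address whether genes of the TGF-beta pathway, which the study places in a network with IL-1 beta, differ with 4NQO and with IL-1Ra on top of 4NQO.

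All values below are log2 of the intensity the authors deposited, so a difference of 1 is a 2-fold difference. Probe sets differ in how well they bind, so levels were compared between groups and not between genes. The median log2 value of an array lay between 5.23 and 5.27 and the lower quartile between 3.60 and 3.78. Correlations between arrays ran from 0.967 to 0.995, and the median SD of a probe set was 0.15 in 4NQO+IL-1Ra, 0.19 in 4NQO and 0.11 in normal tongues. Markers of skeletal muscle averaged 12.61 to 12.88 in 4NQO+IL-1Ra, 12.82 to 13.04 in 4NQO and 12.92 to 13.01 in normal arrays, and those of basal keratinocytes averaged 10.39 to 10.53, 10.39 to 11.27 and 9.41 to 9.89 in the same groups, as a piece of whole tongue holds both. In such tissue, fewer cells of a type and less RNA per cell cannot be told apart.

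The start of the gene is shown for Acvr2b, the only one of these genes that passed the test, and for Tgfbr1, the other receptor measured. Each sequence covers 250 bases before and 50 bases after the annotated start in RefSeq (build GRCr8). Capitals mark GC boxes, GGGCGG on either strand (spelled CCGCCC where the box runs backwards), which are known as binding sites of Sp1-type factors. Acvr2b lies at chr8:128016513-128016812 on the plus strand and Tgfbr1 at chr5:66449148-66449447 on the plus strand.
Acvr2b: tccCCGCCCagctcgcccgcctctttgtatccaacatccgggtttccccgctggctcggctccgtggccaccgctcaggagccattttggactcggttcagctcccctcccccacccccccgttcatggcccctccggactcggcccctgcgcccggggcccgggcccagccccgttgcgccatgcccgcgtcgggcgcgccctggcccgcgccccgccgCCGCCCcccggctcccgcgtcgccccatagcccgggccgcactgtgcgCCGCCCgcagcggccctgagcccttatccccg
Tgfbr1: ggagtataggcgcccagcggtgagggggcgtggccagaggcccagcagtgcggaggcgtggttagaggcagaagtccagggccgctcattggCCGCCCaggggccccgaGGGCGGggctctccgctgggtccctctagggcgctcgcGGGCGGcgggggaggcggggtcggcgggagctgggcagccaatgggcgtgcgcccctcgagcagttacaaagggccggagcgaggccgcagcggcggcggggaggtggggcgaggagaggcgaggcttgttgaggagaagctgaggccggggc
Acvr2b and Tgfbr1 each held 3 GC boxes, Tgfbr2 held 1, and Tgfb1, Tgfb2 and Tgfb3 held 0. Of the 33469 promoters of this length in the table, 33.1% held at least 1. The letters CAGAC on either strand, to which Smad proteins can bind, were in 50.1% of all promoters and in 0 of these 6. The AP-1 site TGACTCA was in 4.63% and the TATA box TATAAA in 14.2% of all promoters, and each, searched on both strands, was in 0 of these 6. Of these motifs only GC boxes were found in the 6, so none overlapped another. The bases G and C made up 77.3% of the Acvr2b window and 74.7% of the Tgfbr1 window, against a median of 51.7% over all promoters.

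Of the 7 probe sets, only that of Acvr2b passed the test between any 2 groups, at a limma adjusted p under 0.05. It rose in 4NQO tongues by 0.90 on the log2 scale (1.86-fold) over normal tongues, and it was 2-fold lower in 4NQO+IL-1Ra than in 4NQO tongues. In limma, with p-values adjusted by Benjamini-Hochberg over all 31042 probe sets and a threshold of 0.05, 1 of 7 probe sets was called in 4NQO against normal, where 14.9% of all probe sets were. With IL-1Ra added to 4NQO, against 4NQO alone, 1 of 7 was called, lower, against 2.33% of all (1.59% higher and 0.731% lower). In 4NQO+IL-1Ra against normal 0 of 7 were called, against 1.87% of all, and 0 of 7 had an unadjusted p under 0.05 or passed the test named in the methods at a fold of 1.5. The arrays of the groups did not overlap for 2 of 7 probe sets in 4NQO against normal, where this held for 38.2% of all, for 3 of 7 in 4NQO+IL-1Ra against 4NQO (20.6% of all), and for 2 of 7 in 4NQO+IL-1Ra against normal (35.3% of all).

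**Figure D1:**
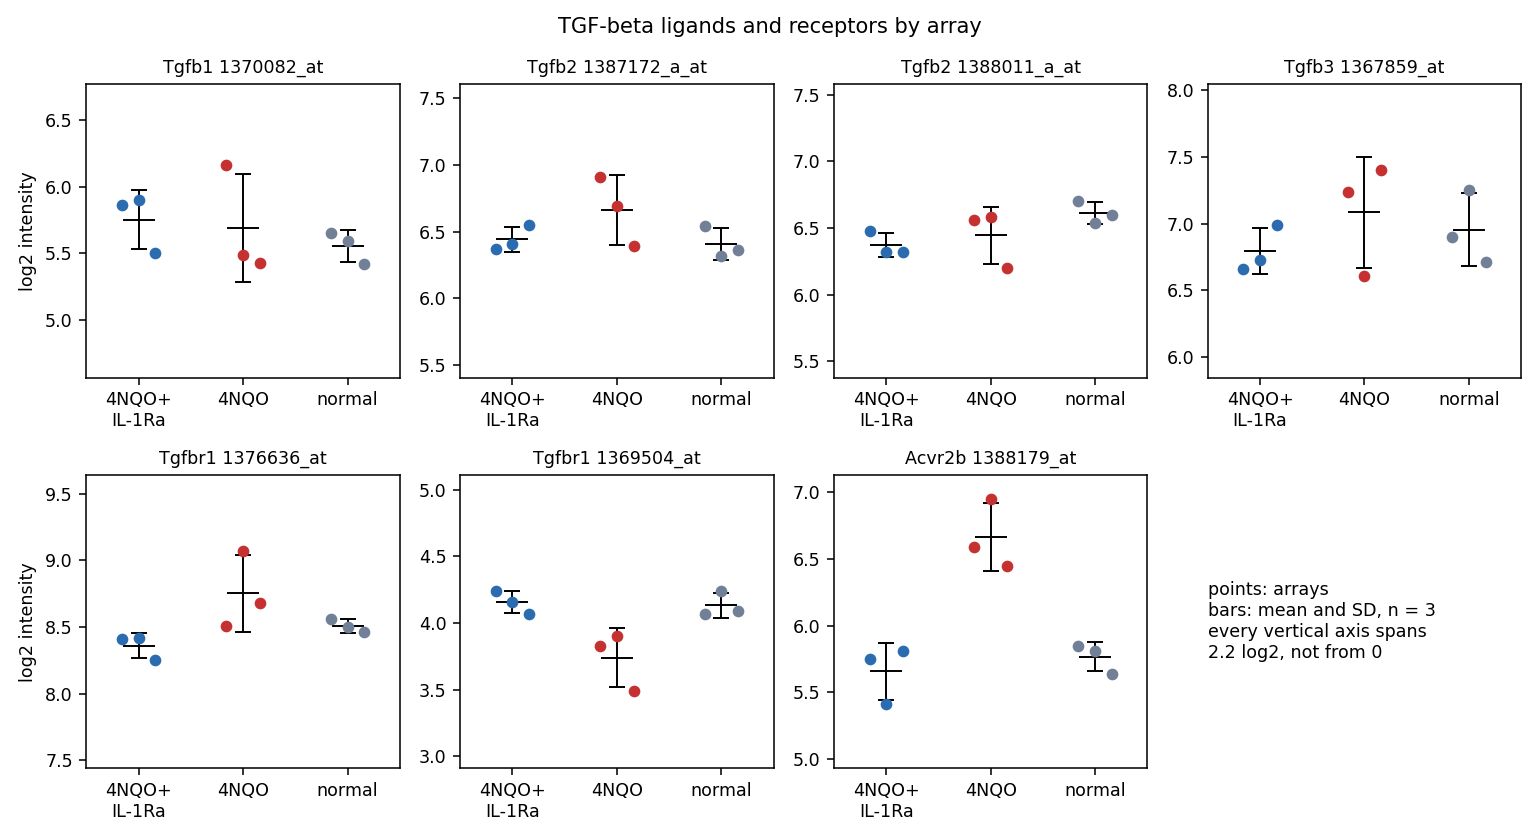
Log2 intensity (vertical axes, each spanning 2.2 log2 units and not starting at 0) of the 7 probe sets on the 3 arrays of the 4NQO+IL-1Ra, 4NQO and normal groups. Points are arrays and bars are the mean and SD (n = 3). The 3 Acvr2b values of 4NQO arrays, 6.45 to 6.95, lie above all 6 others.

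Tgfb1, the ligand best known for restraining immune cells and driving fibrosis, had log2 values of 5.86, 5.90 and 5.5 in 4NQO+IL-1Ra, 6.16, 5.49 and 5.43 in 4NQO, and 5.65, 5.59 and 5.42 in normal arrays. The groups overlapped, and 4NQO array 1 was the highest of the 9. The group means were 5.75 ± 0.22 in 4NQO+IL-1Ra, 5.69 ± 0.40 in 4NQO and 5.55 ± 0.12 in normal tongues (SD, n = 3 each), and no neighbours in this order differed beyond their spread. In limma the difference was 0.14 in 4NQO against normal (95% interval -0.29 to 0.57, adjusted p = 0.649) and 0.06 in 4NQO+IL-1Ra against 4NQO (-0.37 to 0.49, adjusted p = 0.898). The difference of 4NQO+IL-1Ra against normal was 0.20 (-0.23 to 0.63, adjusted p = 0.572). The highest upper limit of these intervals was 1.55-fold higher.

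Tgfb2, a ligand needed for the development of the heart and palate, was read by the probe sets 1387172_a_at and 1388011_a_at. On the brighter, 1387172_a_at, the log2 values were 6.37, 6.41 and 6.55 in 4NQO+IL-1Ra, 6.91, 6.69 and 6.39 in 4NQO, and 6.54, 6.32 and 6.36 in normal arrays. The highest 2 values were 4NQO arrays, while 4NQO array 3 lay among the arrays of the other groups. The difference was 0.26 in 4NQO against normal (95% interval -0.06 to 0.57, limma adjusted p = 0.23), and -0.22 in 4NQO+IL-1Ra against 4NQO (-0.53 to 0.09, adjusted p = 0.435).

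On 1388011_a_at the log2 values were 6.48, 6.32 and 6.32 in 4NQO+IL-1Ra, 6.56, 6.58 and 6.20 in 4NQO, and 6.70, 6.54 and 6.60 in normal arrays. Here the normal group was the highest and not the lowest, with means of 6.37 ± 0.09 in 4NQO+IL-1Ra, 6.45 ± 0.21 in 4NQO and 6.61 ± 0.08 in normal tongues (SD, n = 3). The 4NQO+IL-1Ra arrays all lay below the normal arrays, a difference of -0.24 (95% interval -0.52 to 0.04, limma adjusted p = 0.291). The difference of 4NQO against normal was -0.17 (-0.45 to 0.11, adjusted p = 0.382), opposite in sign to that of the other probe set. The correlation of the 2 probe sets over the 9 arrays was 0.282.

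Tgfb3, a ligand known for fusion of the palate, had log2 values of 6.66, 6.73 and 6.99 in 4NQO+IL-1Ra, 7.24, 6.61 and 7.40 in 4NQO, and 6.90, 7.25 and 6.71 in normal arrays. The groups overlapped, and the 4NQO group held both the highest and the lowest value. Its means were 6.79 ± 0.17 in 4NQO+IL-1Ra, 7.08 ± 0.42 in 4NQO and 6.95 ± 0.27 in normal tongues (SD, n = 3). The difference of 0.13 in 4NQO against normal (95% interval -0.34 to 0.61, limma adjusted p = 0.699) and that of -0.29 in 4NQO+IL-1Ra against 4NQO (-0.76 to 0.18, adjusted p = 0.5) were within the spread between arrays.

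Tgfbr1, the type I receptor of TGF-beta, was read by 1376636_at and 1369504_at, which ran in opposite directions. On the brighter, 1376636_at, the log2 values were 8.41, 8.42 and 8.25 in 4NQO+IL-1Ra, 8.51, 9.07 and 8.68 in 4NQO, and 8.56, 8.50 and 8.46 in normal arrays. The 4NQO+IL-1Ra arrays all lay below the other 6, and 4NQO array 2 was the highest. The difference of 4NQO+IL-1Ra against 4NQO was -0.39 (95% interval -0.71 to -0.08), with a limma p of 0.0201 before and 0.173 after adjustment. In 4NQO against normal it was 0.25 (-0.07 to 0.56, adjusted p = 0.256), and the groups overlapped.

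On 1369504_at the log2 values were 4.24, 4.16 and 4.07 in 4NQO+IL-1Ra, 3.83, 3.90 and 3.49 in 4NQO, and 4.07, 4.24 and 4.09 in normal arrays, close to the lower quartile of the arrays. The 4NQO arrays lay below the other 6. The difference was -0.39 in 4NQO against normal (95% interval -0.67 to -0.11, limma adjusted p = 0.0652) and 0.42 in 4NQO+IL-1Ra against 4NQO (0.13 to 0.70, adjusted p = 0.117). So neither probe set passed the test in any comparison, and a direction for Tgfbr1 could not be given. In the annotation, 1369504_at was designed on a RefSeq transcript and 1376636_at on another GenBank entry, and which part of the transcript each reads was not analysed here.

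Acvr2b, the type II receptor, was read by 1 probe set, which in the annotation was designed on a GenBank entry other than a RefSeq transcript. It had log2 values of 5.75, 5.41 and 5.81 in 4NQO+IL-1Ra, 6.59, 6.95 and 6.45 in 4NQO, and 5.85, 5.81 and 5.64 in normal arrays. In linear intensity these were 54.0, 42.5 and 56.2 in 4NQO+IL-1Ra, 96.5, 123 and 87.2 in 4NQO, and 57.5, 56.2 and 49.9 in normal arrays. The lowest 4NQO array was above every array of the other groups, while the 4NQO+IL-1Ra and normal arrays overlapped.

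The mean of Acvr2b was 6.66 ± 0.26 in 4NQO and 5.77 ± 0.11 in normal tongues (SD, n = 3 each), a difference of 0.90 (SE 0.16, 95% interval 0.55 to 1.24). This is 1.86-fold (1.46 to 2.37), with a limma adjusted p of 0.0093, and 2.91% of all probe sets had a larger difference in size. In 4NQO+IL-1Ra tongues the mean was 5.66 ± 0.22, which was lower than in 4NQO tongues by a difference of -1.0 (SE 0.16, 95% interval -1.35 to -0.65, adjusted p = 0.0133), and 1.73% of all probe sets had a larger one. Against normal tongues the 4NQO+IL-1Ra difference was -0.11 (95% interval -0.45 to 0.24, adjusted p = 0.719). These comparisons share their arrays, the 4NQO arrays standing in both calls.

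The rise of Acvr2b in 4NQO was called without any 1 of the 9 arrays, at 0.75 to 1.0, with limma adjusted p-values of 0.0104 to 0.0495. The lower value in 4NQO+IL-1Ra lost its call without 4NQO+IL-1Ra array 2, the array with the lowest Acvr2b value, at -0.88 and an adjusted p of 0.0579. It also lost the call when only the 6 arrays of the pair were fitted, with the same difference of -1.0 and an adjusted p of 0.0585. Over all 3 groups, the moderated F test of Acvr2b gave an adjusted p of 0.0112, and 12% of all probe sets passed it.

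**Figure D2:**
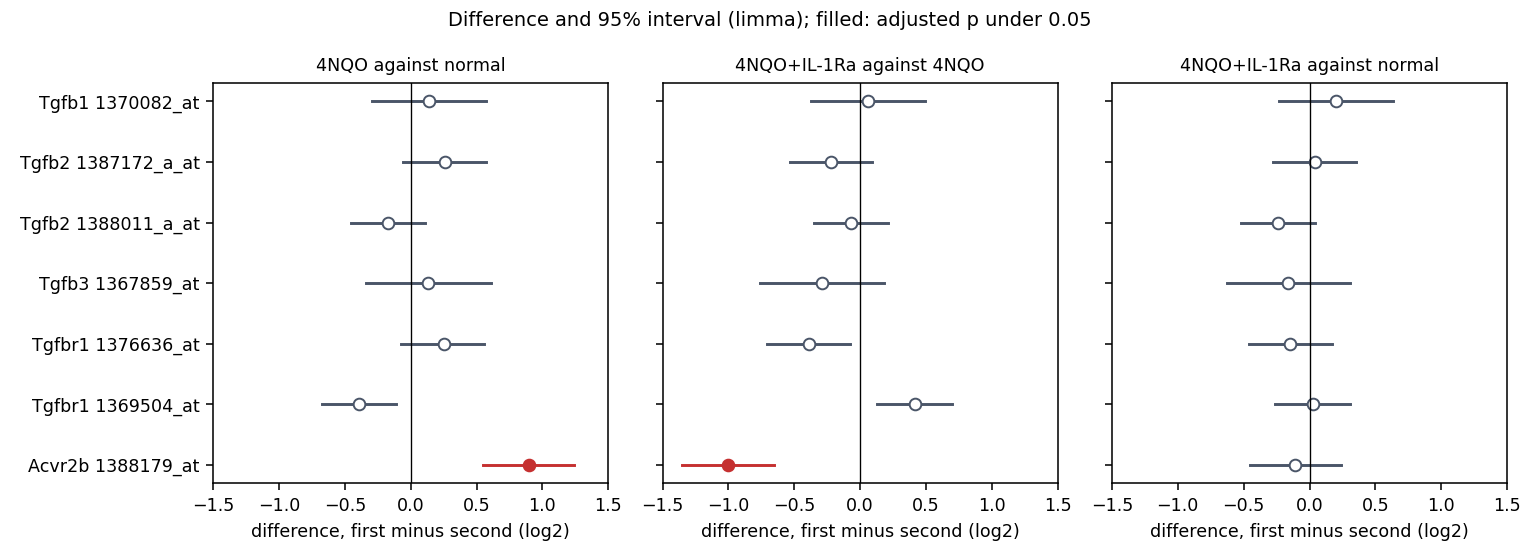
Difference in log2 intensity (horizontal axes, the group named first minus the second) with its 95% interval from limma for the 7 probe sets in the 3 comparisons. Filled red points have an adjusted p under 0.05, and only Acvr2b has them, at 0.90 in 4NQO against normal and -1.0 in 4NQO+IL-1Ra against 4NQO.

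Some measures of cell types and RNA also differed between the groups in which Acvr2b differed. The mean of 7 endothelial markers, of 8 listed, was 7.39 to 7.71 in 4NQO+IL-1Ra, 7.75 to 8.01 in 4NQO and 7.20 to 7.45 in normal arrays. Of the 7, 4 rose in 4NQO, against 9.41% of all probe sets. The mean of 6 markers of upper, differentiating keratinocytes was 12.35 to 12.44 in 4NQO+IL-1Ra, 10.13 to 11.50 in 4NQO and 11.93 to 12.29 in normal arrays. Of the 6, 3 fell in 4NQO (5.44% of all probe sets) and 2 were higher in 4NQO+IL-1Ra than in 4NQO (1.59% of all). The 7 basal keratinocyte markers averaged 1.0 higher in 4NQO than in normal arrays. They averaged 0.73 higher in 4NQO+IL-1Ra than in normal arrays (exact permutation p = 0.1) and differed by -0.28 between 4NQO+IL-1Ra and 4NQO (exact permutation p = 0.6). In 4NQO against normal the arrays of each of these 3 lists did not overlap, and the exact two-sided permutation p was 0.1, the smallest that 3 arrays against 3 allow. For beta-actin, the 3′ probe set exceeded the 5′ one, a sign of RNA breakdown, by 1.20 ± 0.11 in 4NQO and 0.80 ± 0.06 in normal arrays (SD, n = 3, exact permutation p = 0.1), and 1.13 ± 0.15 in 4NQO+IL-1Ra arrays, a difference of -0.08 from 4NQO (exact permutation p = 0.6). For GAPDH it was 0.27 ± 0.01 in 4NQO+IL-1Ra, 0.35 ± 0.07 in 4NQO and 0.27 ± 0.03 in normal arrays, with an exact permutation p of 0.1 for 4NQO against each of the other groups. For hexokinase, in contrast, it was 1.5 ± 0.26 in 4NQO and 1.5 ± 0.03 in normal arrays, a difference of -0.01. In 4NQO+IL-1Ra arrays the hexokinase value was 1.98 ± 0.20, which was 0.48 above normal arrays (exact permutation p = 0.1). The part of these measures in the Acvr2b differences was not tested.

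By Pearson's r over the 9 arrays, the genes with a pattern most like Acvr2b were Gatb (0.985), which encodes a subunit of the mitochondrial glutamyl-tRNA amidotransferase, Cnnm3 (0.981), of a family of magnesium transport mediators, and Kiaa0408L (0.978). They were taken as the highest 3 among 12542 probe sets brighter than the median, as a description with no test. Gatb had log2 values of 6.25, 6.15 and 6.31 in 4NQO+IL-1Ra, 6.59, 6.74 and 6.50 in 4NQO, and 6.27, 6.30 and 6.30 in normal arrays. As with Acvr2b, 4NQO array 2 was the highest and 4NQO+IL-1Ra array 2 the lowest. For Tgfbr1 (1376636_at) the closest were Sgms1 (0.956), a sphingomyelin synthase, Crot (0.948), a peroxisomal carnitine acyltransferase, and Cox18 (0.942), an assembly factor of cytochrome c oxidase. For Tgfb2 (1387172_a_at) they were Fdx1 (0.953), Atp6v0e2 (0.951) and Atp1b1 (0.939), for Tgfb3 Plekha6 (0.892), Igip (0.891) and Nom1 (0.891), and for Tgfb1 Adck1 (0.865), Ralgapb (0.858) and Tent5c (0.854). Among the receptors and ligands themselves, Acvr2b correlated with 1376636_at of Tgfbr1 at 0.783, with 1369504_at of Tgfbr1 at -0.701, and with 1387172_a_at of Tgfb2 at 0.668. All 9 arrays and the group differences in them are shared by these values.

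**Figure D3:**
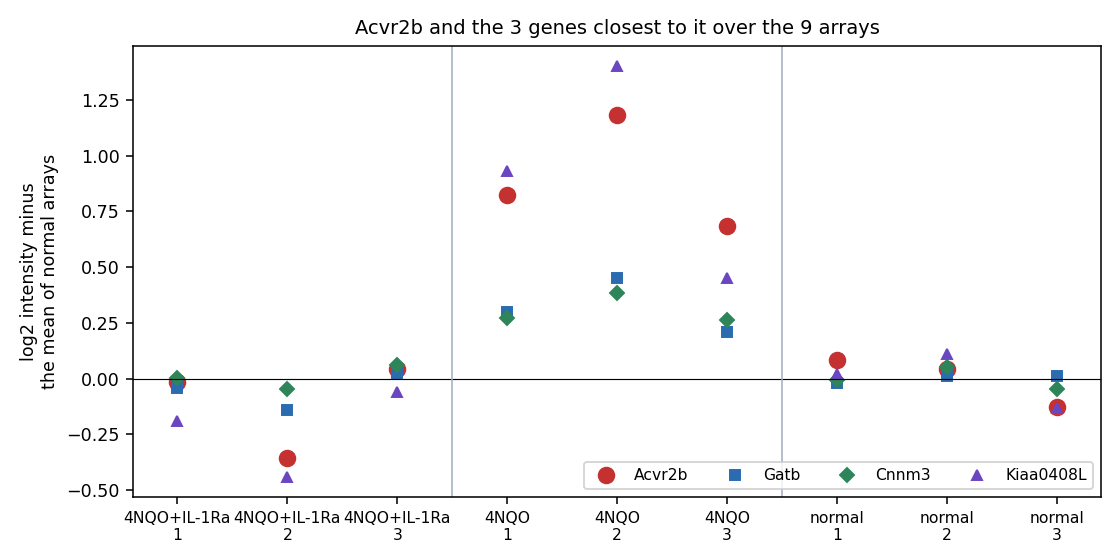
Log2 intensity minus the mean of the normal arrays (vertical axis) on each of the 9 arrays (horizontal axis) for Acvr2b and the 3 genes closest to it by Pearson's r. All 4 genes are highest on 4NQO array 2 and lowest on 4NQO+IL-1Ra array 2, where Cnnm3 (7.29) is level with normal array 3.

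The other genes of the pathway were taken as 6 lists of 70 genes, of which 63 had a probe set, each read by its brightest. In 4NQO against normal 8 of the 63 rose, 10 fell and 45 did not pass, with a median difference of 0.10, where 9.41% of all probe sets rose, 5.44% fell and the median was 0.01. Of the 8 that rose 3 were receptors, and of the 10 that fell 6 were matrix genes listed as targets. In 4NQO+IL-1Ra against 4NQO 0 of 63 passed the limma test, with 13 at an unadjusted p under 0.05 and 1 by the test named in the methods at a fold of 1.5, and the median was -0.06. In 4NQO+IL-1Ra against normal 0 of 63 passed, with 14 at an unadjusted p under 0.05 and 4 by that test, and the median was 0.07. A further 31 probe sets read 24 of these genes. Of them 9 were called in 4NQO against normal (4 higher, 5 lower), against 14.9% of all. In 4NQO+IL-1Ra against 4NQO 2 were called (Smad5 lower and Bmpr2 higher), against 2.33% of all. In 4NQO+IL-1Ra against normal 2 were called (Itgav and Smad1, both higher), against 1.87% of all. Without 4NQO array 1, 6 of the 63 were called higher in 4NQO+IL-1Ra against 4NQO, where 622 of all 31042 probe sets were called in either direction.

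The counts in 4NQO against normal depended on single arrays. Without normal array 1, 2 or 3 the genes that rose numbered 2, 1 and 0, and those that fell 2, 0 and 0. The calls over all probe sets were then 1873, 1518 and 851, against 4610 with all arrays. The genes that rose numbered 5 without 4NQO+IL-1Ra array 2, 4NQO array 1 or 4NQO array 3. Those that fell numbered 6 without any 1 of the 4NQO+IL-1Ra arrays and 5 without 4NQO array 2 or 3. Over the 18 called genes, 92 of 162 calls were lost with 1 array left out and 56 of 196 under the other alternatives, and 0 changed direction.

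**Figure D4:**
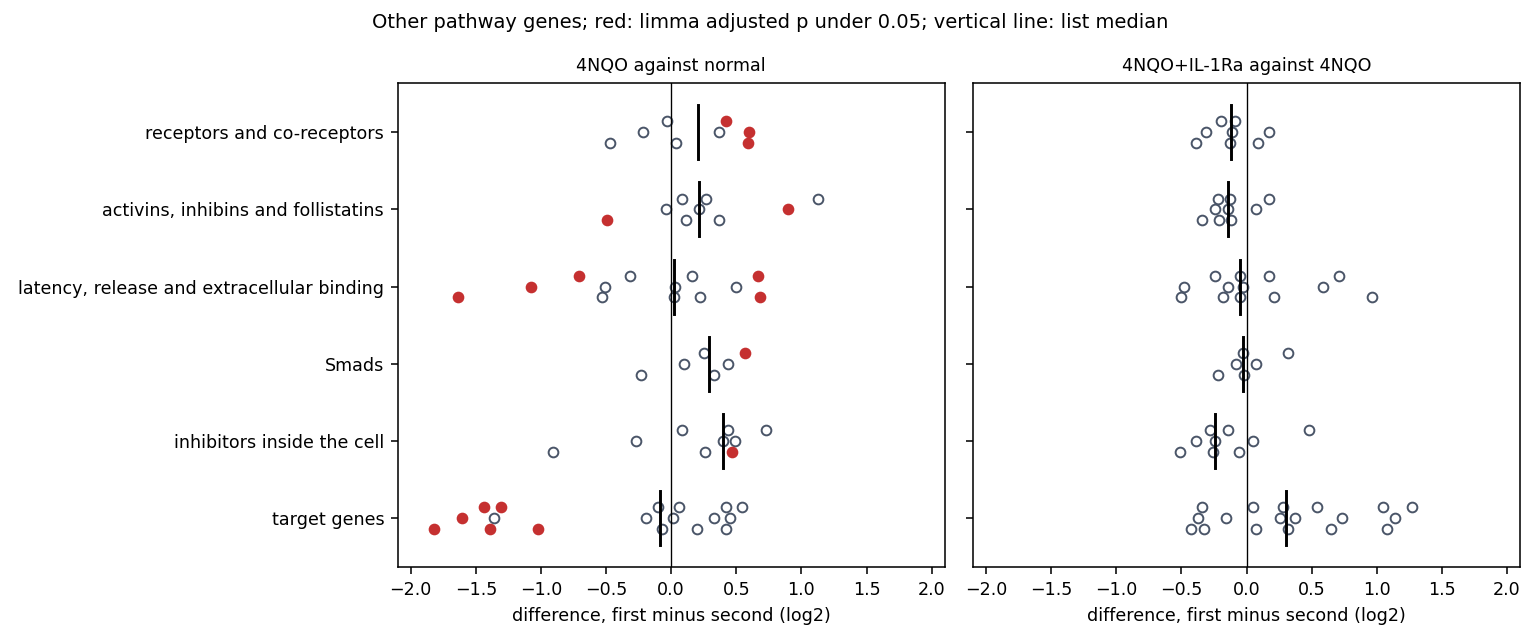
Difference in log2 intensity (horizontal axes, the group named first minus the second) of 63 other pathway genes in 6 lists, in 4NQO against normal and in 4NQO+IL-1Ra against 4NQO. Red points passed limma's adjusted p of 0.05, 8 higher and 10 lower in the first comparison and 0 in the second, and the short vertical lines are list medians.

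Of 8 other receptors and co-receptors measured, 3 rose in 4NQO and 0 fell (median 0.21), where 9.41% of all probe sets rose and 5.44% fell. Acvrl1, a type I receptor of endothelial cells, rose by 0.60 (1.52-fold, limma adjusted p = 0.0268). Bmpr2, a type II receptor for bone morphogenetic proteins (BMPs), rose by 0.59 (1.5-fold, adjusted p = 0.0377) on its brightest probe set, but a dim one, 1394667_at, was lower by a difference of -0.82 (adjusted p = 0.00938), so its direction depended on the probe set. Bmpr1a, a type I receptor for BMPs, rose by 0.42 (1.34-fold, adjusted p = 0.0413). The calls of Acvrl1, Bmpr2 and Bmpr1a were lost without 4, 5 and 7 of the 9 arrays, and under 3, 4 and 5 of the other alternatives. On probe sets that were not their brightest, Acvr1, a type I receptor for activins and BMPs, differed by 0.52 (adjusted p = 0.0148) and Tgfbr3, the co-receptor betaglycan, by -0.47 (adjusted p = 0.0394). Neither gene passed on its brightest. On that of Acvr1 the values overlapped, at 7.38, 7.31 and 7.52 in 4NQO and 7.39, 7.31 and 7.38 in normal arrays. On a further Acvr1 probe set, 1398277_at, the difference was 0.14 (adjusted p = 0.372). Of the 8, 0 passed in 4NQO+IL-1Ra against 4NQO (median -0.12), against 2.33% of all probe sets. There Bmpr2 differed by -0.39 (adjusted p = 0.224) on its brightest probe set and Eng, the co-receptor endoglin, by -0.31 (adjusted p = 0.259). On 1394667_at, in contrast, Bmpr2 was higher in 4NQO+IL-1Ra than in 4NQO by 0.78 (adjusted p = 0.0241).

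Of the 9 activins, inhibins, follistatins and related ligands, 1 rose in 4NQO and 1 fell (median 0.21), against 9.41% and 5.44% of all probe sets. Mstn, myostatin, a ligand that binds Acvr2b and limits muscle growth, rose by 0.90 (1.86-fold, limma adjusted p = 0.0233), with values of 4.06, 4.06 and 4.62 in 4NQO and 3.58, 3.43 and 3.05 in normal arrays, around the lower quartile of the arrays. Inhbe, an activin subunit best known from liver, was lower by a difference of -0.49 (adjusted p = 0.0210). Each call was lost without 2 of the 9 arrays. Inhbb, the subunit of activin B, differed by 1.13 and just missed the threshold (adjusted p = 0.0504), and in 4NQO+IL-1Ra against normal it differed by 1.00 (adjusted p = 0.127). The Inhbb values were 6.74, 5.68 and 5.78 in 4NQO and 4.62, 5.18 and 5.0 in normal arrays, which did not overlap.

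Of 13 genes of latency, release and extracellular binding, 2 rose and 3 fell in 4NQO (median 0.02), against 9.41% and 5.44% of all probe sets. Lrrc32, which tethers latent TGF-beta to the cell surface, rose by 0.67 (1.59-fold, limma adjusted p = 0.0151). Itgb6, the epithelial integrin subunit that releases active TGF-beta, rose by 0.68 (1.61-fold, adjusted p = 0.0280). The values of Itgb6 were 8.14, 8.64 and 8.13 in 4NQO and 7.67, 7.74 and 7.44 in normal arrays. Dcn, decorin, a matrix proteoglycan that binds TGF-beta, was lower by a difference of -1.08 (adjusted p = 0.0205), Ltbp4, a latent TGF-beta binding protein, by -0.71 (adjusted p = 0.0358), and Fbn1, fibrillin of the microfibrils, by -1.64 (adjusted p = 0.0452). Fbn1 was named after its values were seen, as the remaining call of the list, and its other probe set, 1387351_at, differed by -1.48 (adjusted p = 0.0636). Itgav, the partner chain of Itgb6, rose by 0.67 (adjusted p = 0.042) on 1383880_at, which is not its brightest, and on it was 0.91 higher in 4NQO+IL-1Ra than in normal tongues (adjusted p = 0.0473). On its brightest, 1393226_at, it did not pass, with overlapping values of 7.78, 7.97 and 7.86 in 4NQO and 7.97, 7.79 and 7.77 in normal arrays. On 1386581_at it differed by 0.36 in 4NQO against normal (adjusted p = 0.106). The calls of Lrrc32, Itgb6, Dcn, Ltbp4 and Fbn1 were lost without 2, 4, 3, 5 and 8 of the 9 arrays. The difference between 4NQO+IL-1Ra and 4NQO was -0.50 for Itgb6 (adjusted p = 0.152), 0.71 for Dcn (adjusted p = 0.153) and 0.59 for Ltbp4 (adjusted p = 0.139).

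Of the 6 Smads 1 rose in 4NQO (median 0.29), against 9.41% of all probe sets. Smad2, which carries the TGF-beta and activin signal, rose by 0.57 (1.48-fold, limma adjusted p = 0.0465), a call lost without any 1 of the 9 arrays. Smad1, which carries the BMP signal, differed by 0.33 (adjusted p = 0.0626) on its brightest probe set and by 0.65 (adjusted p = 0.00774) on 1369174_at, where 4NQO+IL-1Ra was 0.53 above normal (adjusted p = 0.0448).

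Smad5, another carrier of the BMP signal, had a called pair of differences on 1378255_at, which is not its brightest probe set. Its log2 values there were 6.40, 6.46 and 6.38 in 4NQO+IL-1Ra, 7.15, 7.54 and 7.03 in 4NQO, and 6.08, 5.80 and 5.87 in normal arrays. The 4NQO arrays lay above all others, and the 4NQO+IL-1Ra arrays lay above the normal ones. The difference was 1.32 in 4NQO against normal (limma adjusted p = 0.0033), -0.83 in 4NQO+IL-1Ra against 4NQO (adjusted p = 0.019) and 0.50 in 4NQO+IL-1Ra against normal (adjusted p = 0.0862). Its other probe sets did not pass in any comparison.

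Of the 9 inhibitors inside the cell 1 rose (median 0.40), against 9.41% of all probe sets. Smurf1, a ubiquitin ligase that marks Smads and receptors for breakdown, rose by 0.47 (1.39-fold, adjusted p = 0.0408), a call lost without 7 of the 9 arrays, and its other probe set, 1392802_at, differed by -0.29 (adjusted p = 0.285). Smad7, which blocks the type I receptor, differed by 0.49 (adjusted p = 0.107) on its brightest probe set and by -0.50 (adjusted p = 0.0463) on 1368898_at.

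Of 18 target genes 0 rose and 6 fell in 4NQO (median -0.08), against 9.41% and 5.44% of all probe sets. All 6 build or cross-link the extracellular matrix. Col3a1 and Col1a2, chains of fibrillar collagen, differed by -1.82 (3.53-fold lower, limma adjusted p = 0.0469) and -1.61 (3.06-fold lower, adjusted p = 0.0243). Fn1, fibronectin, differed by -1.39 (adjusted p = 0.0307) and Eln, elastin, by -1.02 (adjusted p = 0.0221), though the other Eln probe set, 1395753_at, differed by -0.13 (95% interval -0.57 to 0.30, adjusted p = 0.672). Col1a1 at -1.44 (adjusted p = 0.0480) and Lox, which cross-links collagen, at -1.31 (adjusted p = 0.0476) also fell, and were named after their values were seen. The other probe sets of Col1a1 and Col1a2 differed by -1.85 (adjusted p = 0.0198) and -1.54 (adjusted p = 0.0214), but the other Lox probe set, 1368172_a_at, by -0.37 (adjusted p = 0.279). The other 12 did not pass, among them Ccn2, a matricellular protein, at 0.54 (adjusted p = 0.0638), and Postn, periostin, at -1.36 (adjusted p = 0.0563).

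Col3a1 had log2 values of 11.53, 11.78 and 11.92 in 4NQO+IL-1Ra, 11.62, 8.89 and 10.92 in 4NQO, and 12.21, 12.44 and 12.23 in normal arrays. Fn1 had values of 10.07, 8.45 and 9.22 in 4NQO and 10.50, 10.97 and 10.44 in normal arrays. For both, 4NQO array 2 was far below the others and 4NQO array 1 the closest to the normal arrays. Without 4NQO array 2 the difference of Col3a1 was -1.02 (adjusted p = 0.0188) and that of Fn1 -0.99 (adjusted p = 0.0572), and those of Col1a1 and Lox were -0.94 (adjusted p = 0.089) and -0.95 (adjusted p = 0.11). The call of Col3a1 was lost without 7 of the 9 arrays, as was that of Lox, that of Col1a1 without 8, that of Fn1 without 5, that of Eln without 4 and that of Col1a2 without 3. Acvr2b, in contrast, was highest on 4NQO array 2.

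Of the 18 target genes, 13 had a difference above 0 in 4NQO+IL-1Ra against 4NQO (median 0.30), but 0 passed. Of all probe sets, 45.8% had a difference above 0 and 2.33% passed. Cdkn2b, an inhibitor of the cell cycle that TGF-beta induces in epithelial cells, differed by 0.65 (limma adjusted p = 0.0649), and by 0.65 also against normal (adjusted p = 0.0615). Fn1 differed by 1.14 (adjusted p = 0.125), Lox by 1.08 (adjusted p = 0.169) and Col1a2 by 1.05 (adjusted p = 0.177).

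The fibroblast marker list also averaged lower in 4NQO. It held Pdgfra, Lum, Dpt, Mfap5, Fap, Col6a1 and Col6a3, and several of these, such as the collagen chains Col6a1 and Col6a3, are themselves matrix genes. Pdgfra, a receptor, overlapped between the groups, at 9.32, 8.23 and 8.84 in 4NQO and 8.95, 9.27 and 8.71 in normal arrays. The mean of all 7 listed markers was 9.23 to 9.44 in 4NQO+IL-1Ra, 8.16 to 9.23 in 4NQO and 9.48 to 9.71 in normal arrays. The mean was lowest on 4NQO array 2, at 8.16, and the list averaged lower in 4NQO than in normal arrays by a difference of -0.89 (exact permutation p = 0.1). Of the 7 genes 5 were called lower, against 5.44% of all probe sets. The 8 macrophage markers averaged 7.22 to 7.90 in 4NQO+IL-1Ra, 6.10 to 7.73 in 4NQO and 7.0 to 7.69 in normal arrays, also lowest on 4NQO array 2. In 4NQO against normal 0 of 8 were called in limma (14.9% of all probe sets) and 1 had an unadjusted p under 0.05. The part of these markers in the fall of the matrix genes was not tested.

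**Figure D5:**
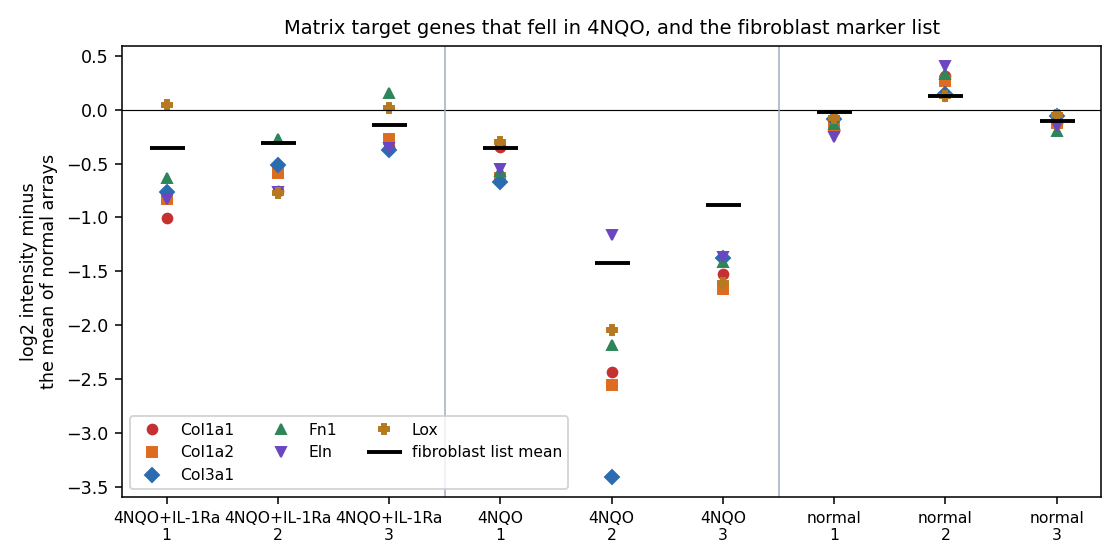
Log2 intensity minus the mean of the normal arrays (vertical axis) on each of the 9 arrays (horizontal axis) for the 6 target genes that fell in 4NQO, with black dashes for the mean of the 7 fibroblast markers. On 4NQO array 2, where the fibroblast mean is 8.16, all of them but Eln are at their lowest.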

How the data were processed

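RNA extracted from tongues was biotin-labelled and put on Affymetrix rat arrays, 1 array per sample. The authors deposited 1 linear intensity per probe set and array, made with RMA in Affymetrix Expression Console, per the labels (versions are not given in the sources used here). RMA aligns the distributions of arrays, so much of a shift common to most genes is not seen in these values. The deposited values were not fully aligned between groups. Their upper quartile was 7.04 to 7.08 in normal arrays and 7.16 to 7.28 in the 4NQO and 4NQO+IL-1Ra arrays. The lower quartile was 3.73 to 3.78 in normal arrays and 3.60 to 3.70 in the others. Log2 was taken, and 57 of 31099 probe sets, the Affymetrix controls, were left out. A symbol was used where the annotation gave 1 (20826 probe sets), and not where it gave several (436) or none (9780).

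The 3 group means were fitted to all 9 arrays with limma 3.58.1 (R 4.3.3) and moderated with eBayes (6 residual and 4.01 prior degrees of freedom), and two-sided p-values were adjusted by Benjamini-Hochberg over 31042 probe sets within each comparison. The fit was tested on simulated data. For the arrays, the study's methods give folds of 2 or 1.5 with a detection p under 0.05, and name no test between groups. Student's t-test, named there for the data in general, was run as an alternative at these folds with an unadjusted p under 0.05. Other alternatives were other scalings, filters and fits, and leaving out each array. The number of arrays, 3 per group, limits the precision.

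Every probe set of the 6 genes was named. From each pathway list up to 4 genes with the lowest adjusted p per comparison were candidates for naming, read by the probe set with the highest mean, and 3 genes per member by correlation. Other probe sets of a list gene were named where they passed the test, and some where they did not while another probe set of the gene did, after their values were seen. The members and lists were chosen with earlier results of these data known. Acvr1b, Bmpr1b, Itgb8, Thbs1, Ski and Snai2 of the pathway lists, and Cdh5 and Gp1bb of the marker lists, were not analysed here, and 1 other listed gene is not reported here. Promoters were taken from RefSeq, and all 6 genes matched.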

Additional observations from a re-analysis of the deposited data

How the results depend on the processing

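The count of called probe sets among the 7 was 1 in 4NQO against normal and fell to 0 with Student's t-test at a fold of 2, since Acvr2b differed by 0.90, under 2-fold. In 4NQO+IL-1Ra against 4NQO it was 1 and fell to 0 with only the 6 arrays compared, where Acvr2b kept its difference at a limma adjusted p of 0.0585. When 1 array was left out, this count ranged over 0 to 1. The remaining alternatives that changed a sign did so for differences that did not pass the test. Tgfb3 in 4NQO against normal was -0.06 with quantile normalization and -0.07 with cyclic loess. Tgfb1 in 4NQO+IL-1Ra against 4NQO was -0.06 with array weights. Tgfb2 (1387172_a_at) in 4NQO+IL-1Ra against normal was -0.11 with quantile normalization and -0.07 with cyclic loess. With 1 array left out, the differences ran from -0.09 up to 0.27 for Tgfb1 and -0.03 up to 0.37 for Tgfb3 in 4NQO against normal, and from -0.07 up to 0.29 for Tgfb1 in 4NQO+IL-1Ra against 4NQO. In 4NQO+IL-1Ra against normal they ran from -0.01 up to 0.11 for Tgfb2 (1387172_a_at), -0.02 up to 0.08 for Tgfbr1 (1369504_at) and -0.18 up to 0.02 for Acvr2b. Of 222 other values of these probe sets, 215 kept their direction and side of the threshold. The cause of these changes was not tested.

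Over all probe sets, the 4610 calls in 4NQO against normal became 2821 with quantile normalization, 2480 with cyclic loess, 2648 with 1 probe set per gene, and 2249 and 452 with the t-test at folds of 1.5 and 2. The t-test calls rest on an unadjusted p under 0.05, unlike the others. The 722 calls in 4NQO+IL-1Ra against 4NQO became 195 with only the 6 arrays, 359 with 1 probe set per gene and 357 with the t-test at a fold of 2. The 581 calls in 4NQO+IL-1Ra against normal became 203 with quantile normalization, 97 with cyclic loess, 3556 with array weights, 2714 with only the 6 arrays, 326 with 1 probe set per gene, and 1391 and 195 with the t-test at folds of 1.5 and 2. With 1 array left out these counts ran from 851 to 4417, 184 to 2353 and 0 to 2084 in the same 3 comparisons. Of the pathway genes in 4NQO against normal, 2 rose with quantile normalization or cyclic loess and 1 with the t-test at a fold of 2, and 6 fell with robust eBayes, 3 with only the 6 arrays and 4 with either t-test. The share of calls that were higher was 63.4% in 4NQO against normal, 51.9% with quantile normalization and 47.7% with cyclic loess.

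No paired analysis was possible because the labels give no replicate numbers that the groups share. The intensities carry no read depth, and Tgfbr1 (1369504_at), near the arrays' lower quartile, has the least room above background.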

Other observations

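Further marker lists and control probe sets gave the following values. The mean of 6 T cell markers was 4.93 to 5.28 in 4NQO+IL-1Ra, 4.40 to 4.94 in 4NQO and 4.67 to 4.81 in normal arrays, lowest on 4NQO array 2, and all 6 markers were higher on average in 4NQO+IL-1Ra than in 4NQO (exact permutation p = 0.2 for the mean of the list). Of 4 platelet markers it was 5.04 to 5.34 in 4NQO+IL-1Ra, 4.65 to 5.57 in 4NQO and 5.22 to 6.08 in normal arrays, and of 4 smooth muscle and pericyte markers 7.24 to 7.37, 6.94 to 7.49 and 7.01 to 7.58 in the same groups. The 3′ minus 5′ difference of hexokinase was 1.98 ± 0.20 in 4NQO+IL-1Ra, 1.5 ± 0.26 in 4NQO and 1.5 ± 0.03 in normal arrays (SD, n = 3). The exact permutation p was 0.1 for 4NQO+IL-1Ra against each of the other groups.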
